A study of Mus musculus with 6 samples.

Results

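The wound keratins analysed here were Krt6a, Krt6b, Krt16 and Krt17, 4 of the 32285 genes in the feature tables. They were chosen by gene symbol alone, each symbol matched a single row, and their levels were followed over time and across cell types defined by marker genes. Droplet single-cell RNA-seq (10x Genomics, 3′ chemistry) was carried out on the dorsal skin of wildtype male FVB mice aged 55 to 57 days, whose back skin was shaved and waxed (depilation) to start hair regeneration. Skin was taken at 0 h, at 4 h and 16 h after depilation, and then on days 2, 4 and 6 (2 d, 4 d and 6 d), with 1 library per time point. All 6 groups shared strain, sex and genotype and differed by label only in time. The treatment label is the same for all, and it is not stated whether 0 h skin was taken before waxing or just after it. Cells of 2 mice, prepared separately, were mixed at equal numbers in each library and cannot be traced back to an animal. A difference between 2 time points therefore has no replicate check, is reported as a value without a test, and carries intervals that cover counting error only. Only a smooth course over all 6 time points was tested, with the libraries as points on a curve. A difference between cell types was seen in up to 6 libraries and was tested over them.

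Keratins form the intermediate filaments of epithelial cells, and each filament pairs a type I with a type II keratin. Krt6a and Krt6b are type II keratins and Krt16 and Krt17 are type I keratins. The 4 are known as stress or wound keratins because keratinocytes at a wound edge switch them on, and because the companion layer, inner bulge and other follicle sheaths use them without injury. Resting interfollicular epidermis uses Krt5 with Krt14 in its basal layer and Krt1 with Krt10 above it.

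Krt6a and Krt6b lie side by side on the reverse strand of chromosome 15 (GRCm38, the build named mm10 in the submitters' processing notes), at chr15:101689910-101694307 and chr15:101676023-101680287, each with 9 exons. Krt16 and Krt17 are neighbours on the reverse strand of chromosome 11, at chr11:100246091-100248902 and chr11:100256217-100261029, each with 8 exons. The coding sequences of Krt6a (1662 bases) and Krt6b (1665 bases) were identical in 97.60% of aligned positions, and the ends of both are shown to let the few differences between these near copies be seen. Both stretches are 5′ to 3′ on the reverse strand and end with the stop codon, at chr15:101690467-101690523 for Krt6a and chr15:101676529-101676588 for Krt6b, and capitals mark bases that differ or are inserted between them.
Krt6a: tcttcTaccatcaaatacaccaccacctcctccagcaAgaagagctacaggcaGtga
Krt6b: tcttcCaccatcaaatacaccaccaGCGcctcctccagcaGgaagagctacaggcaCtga
These stretches end 557 and 506 bases before the end of the transcript. After the stop codon the identity was 70.89%, and in the last 400 bases of either transcript, where 3′ reads gather, no run of 50 bases was shared with any other gene. Krt16 and Krt17 were identical in 70.43% of aligned coding positions, and 5.13% and 6.27% of the 50-base runs in their last 400 bases were shared, with Krt14 and with each other (Krt16 also with Gm11597). No run of 91 bases was shared by any member. Reads that fell further from the end, and differences of the FVB strain from the reference, were not examined, so a small part of Krt6b could be counted as Krt6a or the reverse.

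The libraries held 72634390 to 112370376 unique molecular identifiers (UMIs, each a captured RNA molecule), and 50502 of 61031 barcodes were kept as cells, with a median of 6032 to 10528 UMIs per cell. Pairs of libraries shared 7 to 47 cell barcodes. Cell types were rebuilt from marker genes that did not include the 4 keratins, which were also kept out of clustering, so each name below stands for cells like that type. They are basal, suprabasal and granular interfollicular epidermis (IFE.B, IFE.SB and granular), basal and suprabasal upper hair follicle (uHF.B and uHF.SB), outer bulge (OB1 and OB2), inner bulge (IB), sebaceous gland (SG), companion layer, inner root sheath (IRS), hair matrix, T cells, Langerhans cells, melanocytes, and dermal papilla and fibroblasts. A cluster mostly of 4 d and 6 d cells met the marker count for hair germ (Cdh3, Ptch1, Gli1 and Lgr5). None of its 10 leading genes was a hair germ marker, so it was left without a cell type name. It is called by 1 of those genes, Col14a1. Other clusters also lacked a marker of their own among their 10 leading genes but kept their names. Among these were IFE.B, uHF.B, the parts of OB1 led by Tgfb2 and Cpa4, and a uHF.SB cluster of 2493 cells. That uHF.SB cluster had the IFE.SB markers Krt1 and Krt10 and the granular marker Flg among its leading genes. Levels are CPM, the UMIs of a gene scaled to the same UMI total (1e+06) for all cells of a type in a library. With 3′ counting each UMI is a molecule whatever the transcript length, and CPM is a share of a cell's RNA, so a keratin can fall in CPM when other transcripts rise.

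Over all barcodes of a library, from 0 h to 6 d, Krt6a had 1832, 97277, 38852, 10867, 4195 and 11006 UMIs. Krt6b had 5, 30456, 6174, 1255, 180 and 757 UMIs, and Krt16 had 34163, 214409, 88821, 50144, 8361 and 60364 UMIs. All 3 were highest in the 4 h library, and Krt16 and Krt6a were lowest at 4 d and at 0 h respectively. Krt17 followed another course, with 77031, 104733, 99446, 113641, 374119 and 302984 UMIs and its highest count at 4 d.

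T cells, which should make no keratin, set the free RNA background. In each library their level stood at 3.48% to 8.50% of the all-cell level for Krt6a, Krt16 and Krt17, and at 3.45% to 6.14% for Krt14, a keratin of basal keratinocytes. In T cells at 4 h, where Krt6a stood at 60.2 CPM, Krt16 at 135 CPM, Krt17 at 51.1 CPM and Krt6b at 12.5 CPM, levels of this size were read as background and not as expression. T cells were shallow, with a median of 2222 UMIs at 4 h against 9018.5 in IFE.B, so shares of cells with a UMI are given after thinning every cell to 2000 UMIs. Whether the T cell CPM also holds as the background of deeper cells was not tested.

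Krt6a was far higher at 4 h than at 0 h in every basal and suprabasal type of the epidermis, upper follicle and outer bulge, and its level was lower at each later step down to 4 d. In IFE.B it stood at 5.99, 746, 249, 110, 30.8 and 67.6 CPM from 0 h to 6 d, a 125-fold higher level at 4 h than at 0 h (95% interval of the ratio 107 to 146). In IFE.SB it stood at 5.98, 2200, 330, 140, 44.3 and 56.7 CPM, 368-fold higher at 4 h (292 to 470). The 2 types of interfollicular epidermis thus started at the same low level and ended at 4 h with IFE.SB higher.

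In the upper follicle, uHF.B stood at 30.8, 2612, 307, 118, 29.8 and 48.4 CPM of Krt6a and uHF.SB at 36.9, 3047, 693, 130, 26.3 and 80.9 CPM. The ratio of 4 h to 0 h was 84.9 (74.4 to 97.3) in uHF.B and 82.6 (69.6 to 98.8) in uHF.SB. Granular cells stood at 7.12, 922, 43.7, 19.0, 5.32 and 19.2 CPM and were already close to the T cell level again at 16 h.

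The outer bulge, which holds the hair follicle stem cells, carried Krt6a already at 0 h. OB1 stood at 359, 3595, 1390, 402, 152 and 218 CPM, a 10.0-fold higher level at 4 h than at 0 h (9.23 to 10.9), and was below its 0 h level at 4 d and 6 d. At 0 h the Krt6a of OB1 was in the part of the cluster led by Krt24, where 44.5% of thinned cells had a UMI, against 7.94% in the part led by Tgfb2. OB2 stood at 111, 5502, 2183, 352, 294 and 965 CPM, 49.7-fold higher at 4 h (37.0 to 68.3). Among cell types with at least 20 cells in a library, OB2 at 4 h held the highest Krt6a level.

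The inner bulge carries Krt6a and Krt75 in resting follicles. Its cluster held Krt6a at 1541, 4847, 3979, 2309, 285 and 2736 CPM, from 21, 145, 97, 10, 12 and 120 cells. Krt75, its defining keratin, stood at 1248, 26.8, 23.7, 10.2, 0 and 1278 CPM in the same cells. Between 4 h and 4 d the cluster therefore lacked that marker, and whether its cells then were inner bulge was not tested. The companion layer, which appears with the growing follicle, held 380, 327 and 833 CPM of Krt6a at 2 d, 4 d and 6 d and gave 46.2% of all Krt6a UMIs of the 4 d cells. Sebaceous gland cells, with 15 cells at 0 h, held 192 CPM at 4 h, 37.2 CPM at 16 h and less from 2 d on, within reach of the background.

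Read by cells, Krt6a was found at 4 h in 53.5% of IFE.B, 72.2% of IFE.SB, 52.4% of granular, 87.6% of uHF.B, 76.9% of uHF.SB, 96.2% of OB1 and 97.2% of OB2 cells. The share was 10.2% in T cells and 9.88% in Langerhans cells, the dendritic cells of the epidermis. At 0 h it was 0.910% in IFE.B, 1.25% in IFE.SB, 37.4% in OB1 and 0.559% in T cells. Most basal follicle cells thus carried the message at 4 h, and the top 10% of OB1 cells held 27.4% of its Krt6a UMIs.

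**Figure D1:**
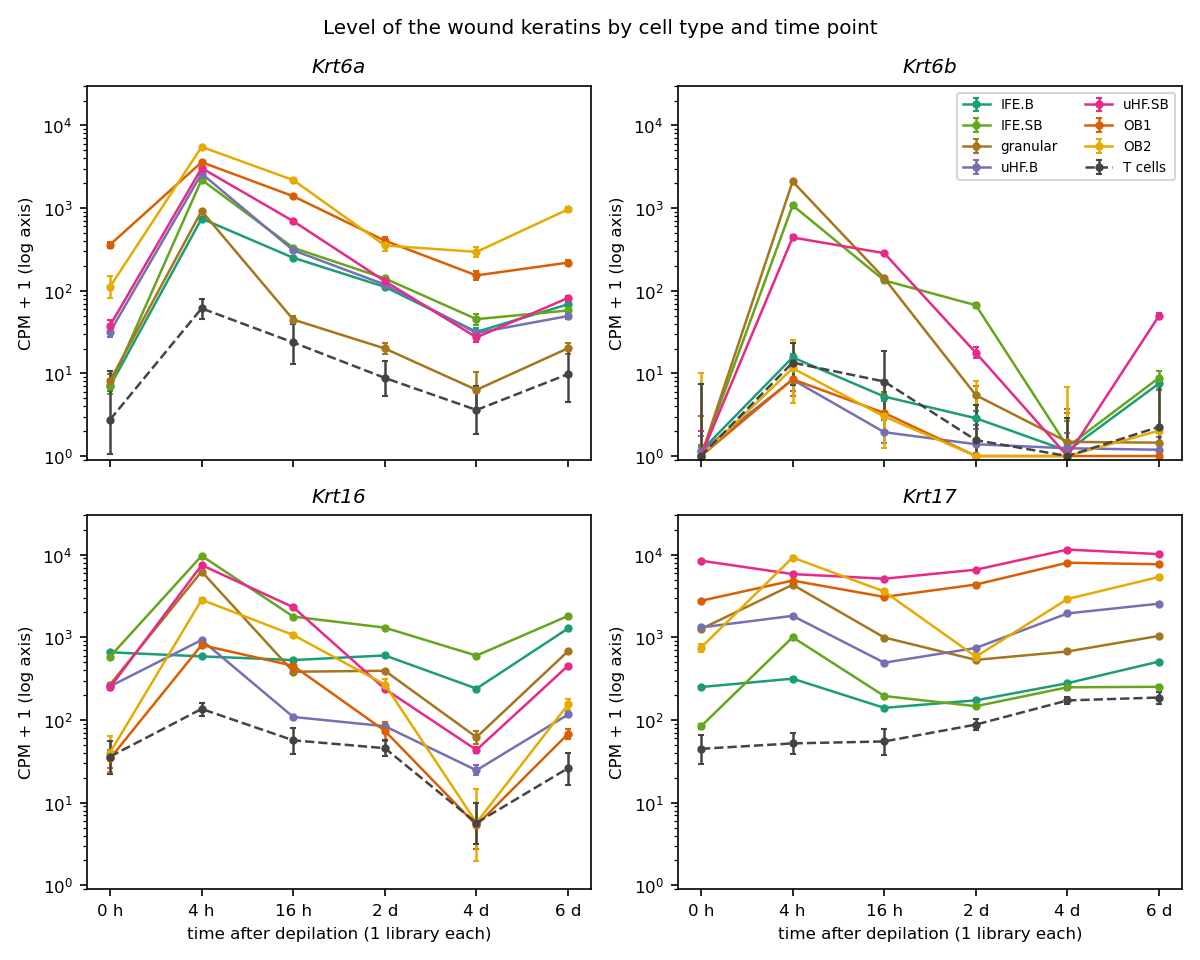
Level of each wound keratin (CPM plus 1, log axis) in 8 cell types at the 6 time points, 1 library each, with 95% Poisson intervals and T cells dashed as the free RNA background. Krt6a, Krt6b and, outside IFE.B, Krt16 peak at 4 h. Among these 8 types Krt17 is highest in uHF.SB at every time but 4 h, when OB2 reached 9240 CPM.

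**Figure D2:**
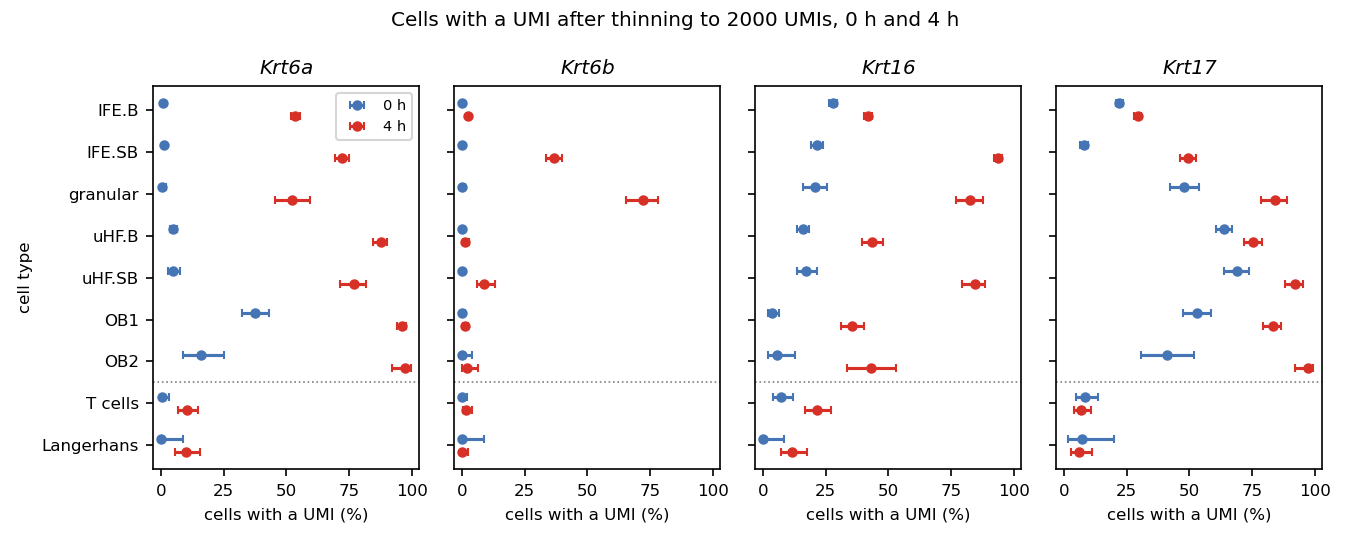
Share of cells with at least 1 UMI after thinning each cell to 2000 UMIs, at 0 h (blue) and 4 h (red), with 95% Clopper-Pearson intervals. The immune cells below the dotted line give the background, and Krt6b at 4 h lies above it in IFE.SB (36.6%), granular (72.1%) and uHF.SB (8.96%) cells.

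Krt6b, the near copy of Krt6a, was far more restricted. In IFE.SB it stood at 0, 1078, 132, 65.8, 0.295 and 7.87 CPM from 0 h to 6 d, and in granular cells at 0, 2096, 141, 4.45, 0.483 and 0.451 CPM. Against a floor of 3 UMIs per library at 0 h, the 4 h level was at least 4327-fold higher in IFE.SB and at least 8731-fold higher in granular cells. Both suprabasal types of the epidermis thus went from no UMI at all to a level above 1000 CPM within 4 h.

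In uHF.SB Krt6b stood at 0, 440, 284, 16.7, 0 and 48.9 CPM, at least 529-fold higher at 4 h than the floor. In the basal and bulge types it stayed near the T cell level of 12.5 CPM at 4 h, with 14.6 CPM in IFE.B, 7.40 CPM in uHF.B, 7.48 CPM in OB1, 10.5 CPM in OB2 and 10.2 CPM in the inner bulge (IB). Krt6a at the same time was between 746 and 5502 CPM in these types. After thinning, 72.1% of granular, 36.6% of IFE.SB and 8.96% of uHF.SB cells had a Krt6b UMI at 4 h, against 2.61% of IFE.B and 1.63% of T cells. By CPM at 4 h, the basal and bulge types therefore lay close to T cells. In IFE.B, however, 3.43% of the 1806 thinned cells with Krt6a had a Krt6b UMI (2.64 to 4.38). The share was 1.66% in the 1567 without (1.09 to 2.42), and the intervals lay apart. Whether this came from expression in IFE.B was not tested. At 6 d IFE.B held 6.57 CPM of Krt6b and T cells 1.26 CPM, the latter from 1 UMI. The IFE.B value came from few cells. A Krt6b UMI was found in 3.85% of the 104 thinned IFE.B cells with Krt6a and in 0% of the 1934 without.

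Granular cells gave 54.6% of the Krt6b UMIs of the 4 h cells and IFE.SB 39.6%. At 6 d uHF.SB gave 73.9% of the Krt6b UMIs of the cells, but 496 of its 542 UMIs came from a single cell, and 3 of 1105 thinned uHF.SB cells had a UMI. Among the UMIs of both Krt6 genes, Krt6b made up 69.5% in 4 h granular cells, with a Clopper-Pearson range of 68.8 to 70.1, and 76.3% in those of 16 h (74.2 to 78.3). In IFE.SB the share was 32.9%, 28.6% and 32.0% at 4 h, 16 h and 2 d, and in OB1 0.208% at 4 h. Krt6b thus outnumbered Krt6a only in granular cells at 4 h and 16 h among the 8 types plotted, and the order granular, IFE.SB and uHF.SB held at 4 h.

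**Figure D3:**
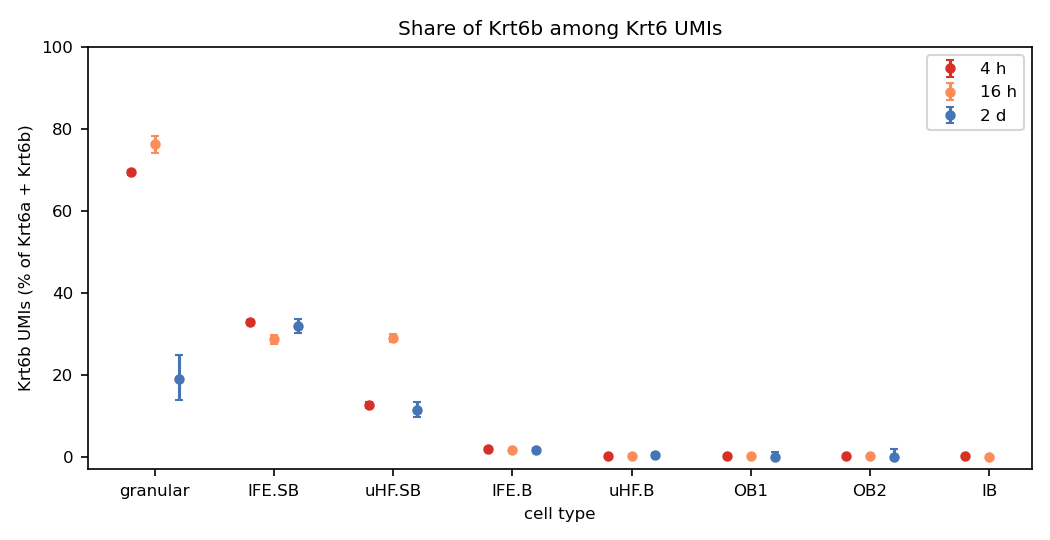
Krt6b as a percentage of all Krt6a and Krt6b UMIs in 8 keratinocyte types at 4 h, 16 h and 2 d, with 95% Clopper-Pearson intervals. Granular cells reach 69.5% and 76.3% at 4 h and 16 h, IFE.SB stays between 28.6% and 32.9%, and uHF.B and the bulge types lie below 1%.

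The Krt6b of uHF.SB sat in few cells. The top 10% of uHF.SB cells held 98.8% of its Krt6b UMIs at 4 h, against 60.4% for IFE.SB and 33.1% for granular cells. The 24 uHF.SB cells with a thinned Krt6b UMI at 4 h summed to 403 CPM of Krt79, the keratin of the upper follicle lining, against 3161 CPM in the 244 cells without. They held more of the spinous keratin Krt10 (6588 against 1847 CPM) and of Sprr1b, a cornified envelope precursor (2266 against 653 CPM). At 16 h the same split gave 458 CPM of Krt79 in 25 cells with Krt6b and 5373 CPM in 620 cells without.

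Over the whole marker lists, the 24 cells summed to 38151 CPM of the 6 IFE.SB markers and 5263 CPM of the 6 granular markers, against 11463 and 157 CPM in the other 244. The uHF.SB markers, which include Krt79, summed to 6935 CPM in the 24 cells and 12361 CPM in the other 244. At 16 h they summed to 10882 CPM in the cells with Krt6b and 22275 CPM in those without. The median depth of the 24 cells at 4 h was 12823 UMIs against 7556.5. Markers of interfollicular suprabasal cells thus moved with Krt6b inside uHF.SB, and whether these cells belonged to the follicle, to the epidermis or to doublets that were kept was not tested.

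Within the epidermis, the 150 granular cells with Krt6b at 4 h held 4890 CPM of loricrin (Lor), the main protein of the cornified envelope, against 22275 CPM in the 58 without. They had 1132 CPM of Krt6a and 7348 CPM of Krt16, against 225 and 2649 CPM. In IFE.SB, 353 cells with Krt6b had 5470 CPM of Krt14 and 12080 CPM of Krt16, against 8631 and 8098 CPM in 611 cells without. At 16 h Krt14 in IFE.SB was 9885 CPM in 50 cells with Krt6b and 9962 CPM in 1205 without, and Lor in granular cells was 6827 CPM in 23 cells with and 10744 CPM in 227 without. Less Lor thus went with Krt6b in granular cells at both times, and less Krt14 in IFE.SB at 4 h but not at 16 h. These sums come from 1 library per time and describe cells that were split by Krt6b itself.

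**Figure D4:**
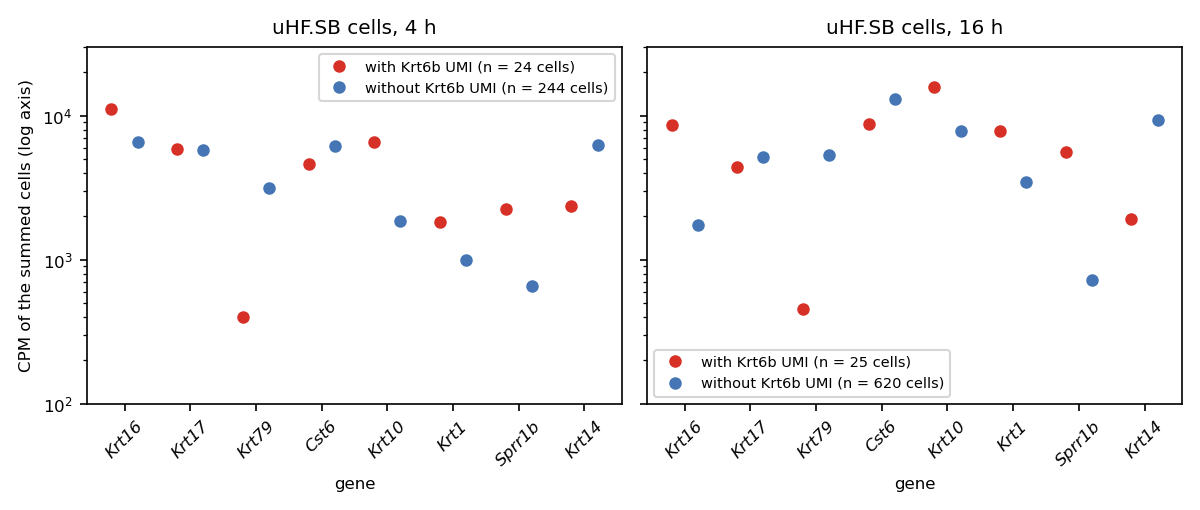
Summed level (CPM, log axis) of 8 genes in uHF.SB cells with (red) and without (blue) a Krt6b UMI after thinning, in the 4 h and 16 h libraries. Krt79 is lower and Krt10, Krt1, Sprr1b and Krt16 are higher in the cells with Krt6b, while Krt17 is close in both (5871 and 5817 CPM at 4 h).

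Krt16, the type I partner of Krt6, was present at 0 h. In IFE.SB it stood at 584, 9693, 1782, 1309, 600 and 1818 CPM, 16.6-fold higher at 4 h than at 0 h (16.2 to 17). Granular cells stood at 267, 6258, 382, 393, 60.9 and 680 CPM, 23.4-fold higher (22.6 to 24.3), and uHF.SB at 247, 7487, 2317, 237, 42.4 and 454 CPM, 30.3-fold higher (28.3 to 32.5). In all 3 suprabasal types the level peaked at 4 h, and it was lower at 4 d than at 2 d and higher again at 6 d.

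IFE.B differed. Its Krt16 stood at 659, 588, 530, 603, 239 and 1281 CPM, so that the 4 h level was 0.892 of the 0 h level (0.874 to 0.911) and the highest level came at 6 d. The part of IFE.B led by Epgn, a ligand of the epidermal growth factor receptor, held 1250, 844, 1156, 1060, 362 and 2238 CPM, and the other IFE.B cells 123, 376, 180, 234, 78.9 and 189 CPM. The ratio of 4 h to 0 h was 0.676 in the first part and 3.07 in the other. The share of IFE.B cells with a UMI was 27.9% at 0 h and 41.8% at 4 h, which goes against the CPM, so no direction was read from it.

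Krt16 was 3.65-fold higher at 4 h than at 0 h in uHF.B, whose levels were 254, 928, 108, 83.1, 23.6 and 116 CPM. In the bulge at 0 h it was near the T cell level of 35.1 CPM. OB1 stood at 33.2, 806, 452, 73.0, 4.31 and 67.0 CPM, and OB2 at 39.4, 2846, 1067, 268, 4.72 and 153 CPM. The ratio of 4 h to 0 h was 24.2 (18.7 to 31.9) in OB1 and 72.3 (44.4 to 127) in OB2. Within OB1 the 4 h level was 1586 CPM in the part led by Cpa4, found almost only at 4 h and 16 h, so the OB1 sum at those times is a mix of parts. In the parts present at 0 h, the ratio of 4 h to 0 h was lower than in the sum. It was 7.35 (5.44 to 10.1) in the part led by Krt24 and 5.81 (2.54 to 15.5) in that led by Tgfb2. Both bulge types were below 5 CPM at 4 d, when T cells stood at 4.69 CPM. After thinning, 93.7% of IFE.SB, 84.3% of uHF.SB and 82.7% of granular cells had a Krt16 UMI at 4 h, against 43.6% of uHF.B and 21.6% of T cells.

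Krt17 was abundant in the follicle at every time, also at 0 h. It stood in uHF.SB at 8465, 5827, 5122, 6581, 11538 and 10158 CPM, 0.688 of the 0 h level at 4 h (0.675 to 0.702), and uHF.SB gave 43.6%, 15.4%, 46.1%, 65.2%, 36.4% and 43.2% of the Krt17 UMIs of the cells in a library. OB1 stood at 2770, 4864, 3083, 4354, 7995 and 7664 CPM, and OB2 at 750, 9240, 3588, 583, 2910 and 5384 CPM, 12.3-fold higher at 4 h (11 to 13.9). Within OB1, the part led by Tgfb2 held 6933 to 14410 CPM and the part led by Krt24 held 544 to 2875 CPM. In OB1 the level at 4 d and 6 d was thus above that at 4 h, while OB2 had 2 high points, at 4 h and at 6 d.

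In the epidermis, Krt17 in IFE.SB stood at 82.8, 1003, 194, 146, 248 and 251 CPM, 12.1-fold higher at 4 h than at 0 h (11.3 to 12.9). Granular cells stood at 1259, 4335, 995, 533, 673 and 1041 CPM, 3.44-fold higher, and IFE.B at 249, 315, 139, 172, 278 and 509 CPM, 1.26-fold higher. T cells stood at 43.8, 51.1, 54.0, 87.0, 172 and 186 CPM. By CPM, the IFE.B level from 16 h on, and the IFE.SB level at every time but 4 h, thus lay within a few-fold of the T cell level. After thinning, 19.7% of IFE.B cells with Krt16 had a Krt17 UMI at 16 h, against 8.74% of those without. At 6 d the shares were 49.2% and 22.8%. The growing follicle carried much of the late Krt17, with 11367 and 11434 CPM at 4 d and 6 d in the companion layer, 7433 and 8032 CPM in IRS, and 6526 and 4784 CPM in the Col14a1 cluster. Hair matrix cells, which divide to form the hair, held 2066 CPM at 4 d. More cells of sheath types at 4 d and 6 d (684 and 391 companion layer cells, none at 0 h) moved with the library total, and their part in it was not tested.

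A uniform rule of size was applied to the change from 0 h to 4 h in 12 cell types: at least 4-fold higher on the log2(CPM + 1) scale, for genes with a mean of at least 10 CPM. Krt6a passed in 11 of 12 types, Krt16 in 7 of 12 and Krt17 in 2 of 12 (IFE.SB and OB2). Of all genes tested, 3.71% were at least 4-fold higher in IFE.B, 3.17% in IFE.SB, 2.88% in granular cells, 3.19% in uHF.B, 3.14% in uHF.SB, 3.88% in OB1, 6.21% in OB2, 4.91% in the Col14a1 cluster and 8.4% in IB. The shares were 2.97% in T cells, 4.22% in Langerhans cells and 12.8% in melanocytes. Krt6b was high enough to be tested in 4 types and passed in all 4, though melanocytes had only 5 of its UMIs, and the filter on level can only be met by a gene that is high at 4 h when it was at 0 before. Krt6a passed in the T cells, Langerhans cells and melanocytes as well, at the level of free RNA. No member was at least 4-fold lower in any type, where 4.14% of genes were in IFE.B, 2.32% in IFE.SB, 1.06% in granular cells, 3.73% in uHF.B, 2.59% in uHF.SB, 4.3% in OB1 and 4.27% in OB2. In the other types 3.47% (Col14a1 cluster), 13.7% (IB), 0.995% (T cells), 4.2% (Langerhans cells) and 6.02% (melanocytes) were lower.

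The balance between the type I keratins differed by place and time. Krt16 made up 90.6% of Krt16 and Krt17 UMIs in IFE.SB at 4 h and 87.6% at 0 h. In uHF.SB it went from 2.83% at 0 h to 56.2% at 4 h, 31.1% at 16 h and 3.47% at 2 d, and in OB1 from 1.19% to 14.2% and 12.8%. Upper follicle suprabasal cells thus held a mostly Krt17 message at 0 h and slightly more Krt16 than Krt17 at 4 h. The 4 wound keratins together were 1.68% of all UMIs of uHF.SB and 1.76% of OB2 at 4 h, and 0.166% in IFE.B. UMIs of Krt6a and Krt6b were 1.32 times those of Krt5, the basal type II keratin, in IFE.SB at 4 h and 0.0023 times at 0 h.

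Over the pairs of wound keratins in the 8 keratinocyte types with all 6 libraries, the share of cells with the second gene was higher in cells with the first than in cells without it in 120 of 147 comparisons within a library, and lower in 27. The 95% intervals lay apart in 64 of the 120 and in 0 of the 27. In OB1 at 0 h, 45.9% of cells with Krt6a had Krt17, against 57.4% of those without. At 4 h, 96.7% of IFE.SB cells with Krt6a also had Krt16, against 85.8% of those without. In granular cells 84.4% of those with Krt6a had Krt6b (76.2 to 90.6), against 58.6% of those without (48.2 to 68.4). In IFE.B 46.9% of cells with Krt6a had Krt16, against 35.9%. Cells were thinned to the same depth, and comparisons that share a library or a gene are not independent. Comparisons in which no cell had the second gene were left out. The intervals cover the counting of cells within a library only. Pairs of other genes were not compared, so whether these counts are particular to the wound keratins was not tested.

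Differences between cell types were tested over libraries with a two-sided exact sign-flip permutation test on log2(CPM + 1). With 6 libraries the smallest p it allows is 0.031, and over the 32 tests the smallest Benjamini-Hochberg adjusted p was 0.111, so no contrast passed. Krt17 was higher in uHF.SB than in uHF.B by 2.57 ± 0.65 (SD over 6 libraries, exact p = 0.031), in uHF.B than in IFE.B by 2.33 ± 0.34 and in uHF.SB than in IFE.SB by 5.04 ± 1.38, each in 6 of 6 libraries. It was higher in OB1 than in IFE.B by 4.21 ± 0.52 and in OB1 than in uHF.B by 1.88 ± 0.63, again in 6 of 6.

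Krt6a was higher in OB1 than in IFE.B by 2.71 ± 1.49 and in OB1 than in uHF.B by 2.06 ± 0.98, in 6 of 6 libraries each. Krt16 was higher in OB2 than in OB1 by 1.07 ± 0.75 in 6 of 6, and Krt6b was lower in OB1 than in IFE.B in 6 of 6, with low levels in both. These 9 contrasts reached the smallest p and had an adjusted p of 0.111. The contrasts IFE.SB minus IFE.B for Krt6b (2.59 ± 2.82, higher in 5 of 6, exact p = 0.0938) and Krt16 (1.43 ± 1.45, 5 of 6, exact p = 0.0625) did not, with a difference of 6.11 and 4.04 in the highest library and below 0 in the lowest. In SG, compared in 5 libraries with at least 20 cells, Krt6a, Krt6b and Krt16 were lower than in IFE.B in 5 of 5, at the smallest p of 0.0625 that 5 allow.

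**Figure D5:**
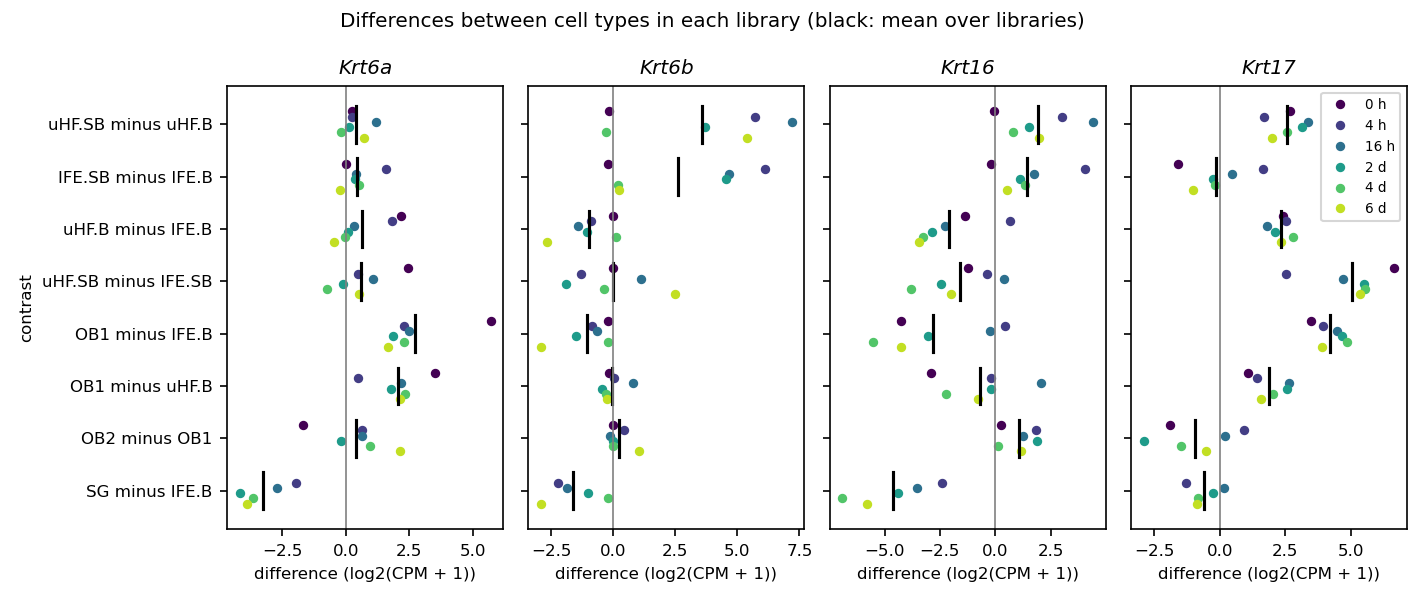
Difference in log2(CPM + 1) between 2 cell types for each wound keratin, 1 point per library colored by time and a black bar at the mean. For Krt17 all 6 points lie above 0 in the 5 contrasts named in the text, while for Krt16 and Krt6b the points spread over several log2 units.

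Ordered by the mean of log2(CPM + 1) over the 6 libraries, Krt6a was highest in OB2 (9.48 ± 2.06, SD), then OB1 (9.07 ± 1.72), uHF.SB (7.40 ± 2.62), uHF.B (7.01 ± 2.48), IFE.SB (6.79 ± 2.82) and IFE.B (6.37 ± 2.35). Krt17 was highest in uHF.SB (12.9 ± 0.46), then OB1 (12.2 ± 0.64) and the Col14a1 cluster (11.6 ± 0.77). Krt16 was highest in IFE.SB (10.6 ± 1.48) and then IFE.B (9.18 ± 0.77), and Krt6b in uHF.SB and IFE.SB (both 4.45). The Krt6b mean of uHF.SB includes its 6 d sum, most of whose UMIs came from a single cell. Of 40 tests between neighbours in these orders, 6 reached the smallest exact permutation p of 0.031 and none passed after adjustment, the smallest adjusted p being 0.208. The orders therefore stand as descriptions. They hold only types with at least 20 cells in every library, which leaves out IB, with 10 cells at 2 d and 12 at 4 d. Krt6a in IB was above OB2 at 0 h, 16 h and 6 d and below it at 4 h. Krt17 in IB was above uHF.SB at 16 h (7279 against 5122 CPM) and 6 d (17048 against 10158 CPM). It was below uHF.SB at 0 h and 4 h.

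Cycling basal cells, taken as those with at least 2 UMIs of 10 cell cycle genes after thinning, were compared with the other basal cells of their type. Krt16 was lower in cycling than in non-cycling IFE.B cells by 0.60 ± 0.16 on the log2(CPM + 1) scale and in uHF.B by 0.86 ± 0.49 (SD, 6 libraries), in 6 of 6 libraries each. Krt17 was higher in cycling OB1 cells by 0.47 ± 0.25 in 6 of 6. With Krt6b in IFE.B, 4 of 12 contrasts reached the smallest exact permutation p of 0.031, and their adjusted p was 0.0938. Krt6a in IFE.B differed by 0.06 ± 0.56, within the spread between libraries.

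The time course was tested with a spline of hours in edgeR's quasi-likelihood test across all genes of a cell type, a test without direction that leaves 2 residual degrees of freedom. In the 8 keratinocyte types that could be fitted, 0 of 28 wound keratin tests passed an adjusted p of 0.05, and 8 had an unadjusted p under 0.05. Of all genes tested, 0% were called in IFE.B, IFE.SB, granular, uHF.B, uHF.SB, OB1 and OB2, and 0.684% in the Col14a1 cluster, 0.0513% in T cells and 0.049% in Langerhans cells. DESeq2's likelihood ratio test of the same spline called 5 of the 28 (Krt6a and Krt16 in the Col14a1 cluster, Krt6a in OB1, and Krt16 in uHF.B and uHF.SB). Of all genes it called 2.4% in the Col14a1 cluster, 1.06% in OB1, 0.327% in uHF.B, 1.16% in uHF.SB, 0.902% in granular cells, 0.162% in IFE.B, 0.237% in IFE.SB and 0.363% in OB2. It also called Krt16 in melanocytes (1.77% of genes), and no member in T cells (0.462%) or Langerhans cells (0.327%). The only call in edgeR on hours was Krt16 in melanocytes (adjusted p = 0.01285, where 3.06% of genes were called), at a level within the free RNA background.

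On a scale of log2(hours + 1), which spreads the early time points apart, 3 of the 28 keratinocyte tests passed in edgeR and 23 had an unadjusted p under 0.05. They were Krt6a in OB1 (adjusted p = 1.851e-06) and OB2 (adjusted p = 7.521e-05), and Krt17 in OB2 (adjusted p = 0.0007139), where 20.5% of genes were called in OB1 and 4.07% in OB2. Krt6a in uHF.SB had an adjusted p of 0.0577, with 0.989% of genes called. On this scale 6.48% of genes were called in the Col14a1 cluster, 0.0631% in granular cells and 0.196% in Langerhans cells, and no member was. Krt16 and Krt17 were called in melanocytes, with 13.8% of genes. Without the 0 h library, on hours, 10 of 35 member tests over all 11 types were called, against 1 of 35 with it, and leaving out 4 d or 6 d gave 0 of 34. Fits with a library left out used a spline with 1 degree of freedom fewer. The library and the spline thus changed together, and their parts in the difference were not tested. The share of all genes called without 0 h was also higher in most types, at 12.8% in OB1 (2 members called), 3.05% in OB2 (1), 6.28% in the Col14a1 cluster (1) and 7.8% in melanocytes (2). It was 0.671% in uHF.SB (2 members), 0.173% in granular cells (1), 0.244% in T cells (1), 0.0345% in uHF.B, 0.574% in Langerhans cells and 0% in IFE.B and IFE.SB, the last 4 without a member called.

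Genes around the wound keratins were followed as 4 lists: partner keratins, genes of keratinocyte activation, regulators of keratin transcription, and filament partners. The last list held Dsp, Ppl, Evpl, Plec, Jup, Pkp1, Pkp3 and Sfn. On hours, none of the listed genes was called in IFE.B, IFE.SB, granular, uHF.B, uHF.SB, OB1 or OB2, and in the Col14a1 cluster 1 of 21 activation genes was (Hbegf, a growth factor of the epidermal growth factor family, adjusted p = 0.01486 in edgeR), against 0.684% of all genes. On log2(hours + 1), 17 of 22 tested activation genes, 5 of 8 filament partners, 5 of 16 regulators and 3 of 8 partner keratins were called in OB1, against 20.5% of all genes. In OB2 the counts were 5 of 9, 1 of 8, 1 of 14 and 2 of 7, against 4.07% of all genes. For uHF.SB 2 of 33 activation genes were called and none of the other lists, against 0.989% of all genes. In the Col14a1 cluster they were 9 of 21, 4 of 8, 3 of 16 and 3 of 7, against 6.48% of all genes, and none was called in IFE.B, IFE.SB, granular or uHF.B.

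Ptgs2, the inducible prostaglandin synthase, stood in OB1 at 72.5, 503, 224, 16.4, 5.55 and 14.7 CPM from 0 h to 6 d (adjusted p = 7.546e-08 on log2 hours in edgeR). Sfn, the stratifin adaptor protein of keratinocytes, stood at 4908, 10965, 3254, 1787, 1221 and 1916 CPM (adjusted p = 7.758e-05). Klf4, a barrier transcription factor, stood at 2654, 1607, 1116, 795, 677 and 545 CPM (adjusted p = 0.0001842). Ptgs2 and Sfn were thus highest at 4 h, with Krt6a, while Klf4 was lower at each later time.

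From 0 h to 4 h, the median log2 change of the 8 filament partners was 1.11 in OB1, 1.08 in OB2, 1.00 in uHF.B and 0.64 in IFE.B, beside 0.08, 0.18, 0.18 and 0.16 over all genes. The activation list had a median of 1.36 in uHF.SB (7 of 22 at least 4-fold higher, against 3.14% of all genes), 1.24 in OB1 and 1.68 in OB2, but 0.08 in IFE.SB and −0.35 in IFE.B. Krt15, a keratin of resting basal cells, stood in IFE.B at 7291 CPM at 0 h and 779 CPM at 4 h, and in OB1 at 13309 and 4787 CPM. Krt14 went the other way in OB1, from 3483 to 16386 CPM. Partner keratins as a list had a median of −0.38 in OB1 and −0.74 in IFE.B.

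Across 78 sums of a cell type in a library with at least 50 cells, genes whose log2(CPM + 1) followed a wound keratin most closely were ranked among 8346 genes. The sums share libraries and depth, so these correlations describe the table. Those like Krt6a included Aqp3, a water and glycerol channel and uHF.B marker (Pearson r = 0.81), Dsg3, a desmosomal cadherin (0.80), Cast, the calpain inhibitor (0.79), and Dusp6, a phosphatase induced by ERK signaling (0.73). Aqp3 stood in IFE.B at 105 CPM at 0 h and 1892 CPM at 4 h.

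Krt16 was followed by Serpinb2, a protease inhibitor (r = 0.88), Lypd3 (0.83), the AP-1 subunit Fosl1 (0.81), Dusp7 (0.81) and Anxa7 (0.80). Krt6b was followed by S100a9, an alarmin (0.69), Cstdc5 (0.66, a gene with near copies), Rab11a (0.66), Rab10 (0.66) and Sprr1b (0.64). Krt17 was followed by Ephb3, a receptor for ephrins (0.83), Igsf9 (0.82), Barx2 (0.81), the vitamin D receptor Vdr (0.81) and the follicle stem cell factor Sox9 (0.81), an OB1 marker. Between members the correlation was 0.69 for Krt6a with Krt16, 0.63 for Krt6b with Krt16, 0.56 for Krt6a with Krt17, 0.45 for Krt6a with Krt6b, 0.28 for Krt16 with Krt17 and 0.06 for Krt6b with Krt17. The 2 near copies, Krt6a and Krt6b, were thus less alike in pattern than Krt6a and Krt16.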

How the data were processed

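The authors aligned and counted reads with Cell Ranger 6.1.2 on mm10, per the submitters' processing notes, and deposited UMI counts per gene and barcode for 6 libraries. Barcodes with 500 to 7000 genes and at most 10% mitochondrial UMIs were kept, and the 4675 cells with the highest Scrublet scores (scanpy 1.11.5, 0.8% per 1000 barcodes) were removed as doublets. Cells were integrated and clustered in Seurat 5.3.0 (2000 variable genes without the 4 members, the listed genes that are no marker and cell cycle genes, 30 components, resolution 0.2, and 0.4 for follicle cells). Clusters were named from at least 3 markers (the Col14a1 cluster was left unnamed after its leading genes were seen), and at least 20 cells per sum were required.

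Counts were summed per library and type. Time courses used edgeR 4.0.16 (TMM, filterByExpr, spline of 3 degrees of freedom, robust quasi-likelihood F test, FDR 0.05), with DESeq2 1.42.0 as an alternative, and contrasts used exact permutation tests. When a library was left out, the spline had 1 degree of freedom fewer. On simulated data for OB1, 189 of 198 genes with a log2 change of 3 were recovered, with 202 called. For a log2 change of 1, 4 of 200 were recovered, with 4 called. The dispersion was set at 0.05, and recovery of a course with a peak at 4 h was not tested. Intervals are 95% exact Poisson, Clopper-Pearson or conditional, and the floor is 3 UMIs.

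The members and lists were chosen with earlier results of these data known. Besides the 4 members, the text names the 5 genes most like each (1 of them is not reported here), and, from each list and cell type, genes among the 3 with the smallest time course p. Krt79, Lor, Krt10, Krt14, Krt15, Krt75 and Sprr1b were named after their values were seen. Positions and sequences were read from GENCODE M21 on GRCm38. Other settings tried were time scale, normalization, filters, thinning, pseudocount, doublet rate, clustering resolution and leaving out each library. The 4-fold count with a pseudocount of 5 CPM was added after seeing the data.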

Additional observations from a re-analysis of the deposited data

Results flagged for a closer look

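Krt16 in IFE.B at 4 h was 0.892 of its 0 h level while 10 other cell types were higher at 4 h, and the part of IFE.B led by Epgn (0.676) went the other way from the other IFE.B cells (3.07). Krt17 at 4 h was 0.688 of its 0 h level in uHF.SB while 8 other types were higher, and its share of cells with a UMI went from 69.0% to 92.2%, against the CPM. Krt17 in Langerhans cells was 0.294 of its 0 h level, at the level of free RNA and from 43 cells at 0 h. With 1 library per time point none of these differences between cell types was tested.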

How the results depend on the processing

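No paired analysis was possible because each time point had a single library. The number of genes called over time depended on the settings, and the cause was not tested. With log2(hours + 1), the rank of the time point, no filter on low counts, and DESeq2 in that order, the calls were 653, 480, 367 and 233 in the Col14a1 cluster (69 in the analysis reported), 622, 472, 249 and 80 in melanocytes (138), 2068, 429, 45 and 107 in OB1 (0), 270, 59, 73 and 11 in OB2 (0), 114, 6, 2 and 129 in uHF.SB (0), 7, 4, 6 and 100 in granular cells (0), 12, 28, 129 and 20 in Langerhans cells (3) and 0, 2, 209 and 36 in T cells (4). DESeq2 called 21 in IFE.B, 27 in IFE.SB and 36 in uHF.B, where edgeR called 0. Calls in OB1 were 2 with DESeq2 size factors and 6 at follicle resolution 0.2. T cells had 1 call without the robust option and 1 with doublets removed at a doubled rate, which left 0 in Langerhans cells. Calls of wound keratins were 5 on log2 hours, 6 on ranks, 6 without the filter, 6 with DESeq2 and 2 with the doubled doublet rate, against 1.

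Leaving out 1 library at a time gave 16 to 653 calls in the Col14a1 cluster, 0 to 136 in granular cells, 0 to 5 in IFE.SB, 3 to 35 in Langerhans cells, 53 to 389 in melanocytes, 0 to 1303 in OB1, 0 to 208 in OB2, 0 to 121 in T cells, 0 to 4 in uHF.B, 0 to 77 in uHF.SB and 0 in IFE.B, and 0 to 10 wound keratin calls. The highest counts in OB1 (1303) and OB2 (208) came without 0 h. All of these fits also used a spline with 1 degree of freedom fewer. SG was not fitted, with 15 cells at 0 h.

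Of the contrasts, Krt6b in uHF.SB minus IFE.SB was 0.0017 on the log2 scale and became −0.044 with TMM factors and −0.014 with the doubled doublet rate, and Krt6b in OB1 minus uHF.B became 0.0069 with a pseudocount of 5 CPM. Krt6a in cycling against non-cycling IFE.B cells became −0.090 with a minimum of 1 UMI and −0.080 with 4 UMIs. None of these passed the test under any setting. Leaving out 1 library turned the sign of Krt17 in IFE.SB minus IFE.B (−0.50 to 0.15) and of the same Krt6b contrasts (−0.50 to 0.38 and −0.24 to 0.0076). The other contrasts kept their sign under the alternatives run. The depth limits what could be seen of a gene without UMIs, with a floor of 3 UMIs at 0.249 CPM in IFE.SB and 7.38 CPM in OB2 at 0 h.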
